A study of Nicotiana tabacum with 39 samples.

Results

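The 250 transcripts described here are those that stood out for their level in tobacco leaves at 112 h after the return to light. Counts were scaled to counts per 1000000 of the library total (CPM) and averaged over the 3 replicates of each group. A transcript was a member if its highest group mean was at 112 h, if that mean was at least 5 CPM, and if it was at least 3 times the mean in untreated control leaves, at the end of darkness (0 min) and at 16 h of light, with 0.1 CPM added to each mean. Of the 53725 transcripts in the tables, 6448 had their highest mean at 112 h, 2993 of these had at least 5 CPM there, and 267 of those met the fold. The 250 with the largest ratio of the 112 h mean to the highest of the 3 other means were kept. They are numbered below by that ratio, so rank 1 is the largest. The levels at 112 h, in control, at 0 min and at 16 h chose the members, so differences between these groups are given as a description, with no test.

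The study followed greening of young leaves of Nicotiana tabacum, cultivated tobacco, by sequencing polyA RNA of whole leaf tissue. Soil-grown plants near maturity, under long days, went through extended darkness, in which young leaves came out pale, and were then put back in light. Leaves in the light groups were taken 5, 10 or 30 min, or 1, 2, 4, 8, 16, 40, 64 or 112 h, into the renewed light; those of the other groups were taken at the end of darkness (0 min), or came from plants that had no darkness (control). Each library pooled middle sections of 2 leaves from each of 3 plants, and each of the 13 groups had 3 libraries. No plants kept in darkness for the same time are among the 39 libraries, so time in light and leaf age cannot be told apart. The sources used here do not give the length of the darkness or the clock time at which control leaves were taken. Harvests at 16, 40, 64 and 112 h lie whole days apart, whereas the one at 8 h does not.

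De-etiolation is the change of a pale, dark-adapted leaf into a green one, in which etioplasts, the plastids of tissue without light, turn into chloroplasts. Light is sensed by phytochromes and cryptochromes, and the first changes in RNA follow within minutes. Later, leaf expansion, the build-up of the cuticle and a leaf's turn from importer to exporter of sugar run over days. The identifiers of the transcripts are bare NCBI numbers that could not be paired with gene names, so it is not known which of these processes the 250 members belong to, and no member can be given a role. Markers of leaf cell types could not be checked for the same reason. In bulk tissue, fewer cells of a type and less RNA per cell cannot be told apart.

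Library totals ran from 15844109 to 37269515 counts, and the libraries at 112 h held 19160583, 19765154 and 24613789. All 250 members passed the filter on low counts that left 42181 transcripts for testing. The rule asks for at least 5 CPM at 112 h, so their passing was given by the choice.

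Together the members took up 1.87%, 1.09% and 1.46% of all counts in the 3 libraries at 112 h. The same sum was 0.191%, 0.284% and 0.211% at 16 h, 0.174%, 0.177% and 0.142% at 0 min, and 0.181%, 0.312% and 0.179% in control. The lowest library at 112 h thus stood above every library of these 3 groups, which the rule had chosen for. Between 0 min and 8 h the mean share stayed between 0.150% and 0.181%. The 16 h group averaged 0.229 ± 0.0488%, the 40 h group 0.435 ± 0.196%, the 64 h group 0.770 ± 0.0750% and the 112 h group 1.47 ± 0.392% (SD, n = 3 each). The sum therefore climbed through the last 4 groups, and its SD was largest at 112 h and 40 h. These SDs are not scaled to the mean, and control, with 0.224 ± 0.0760%, was also uneven.

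**Figure D1:**
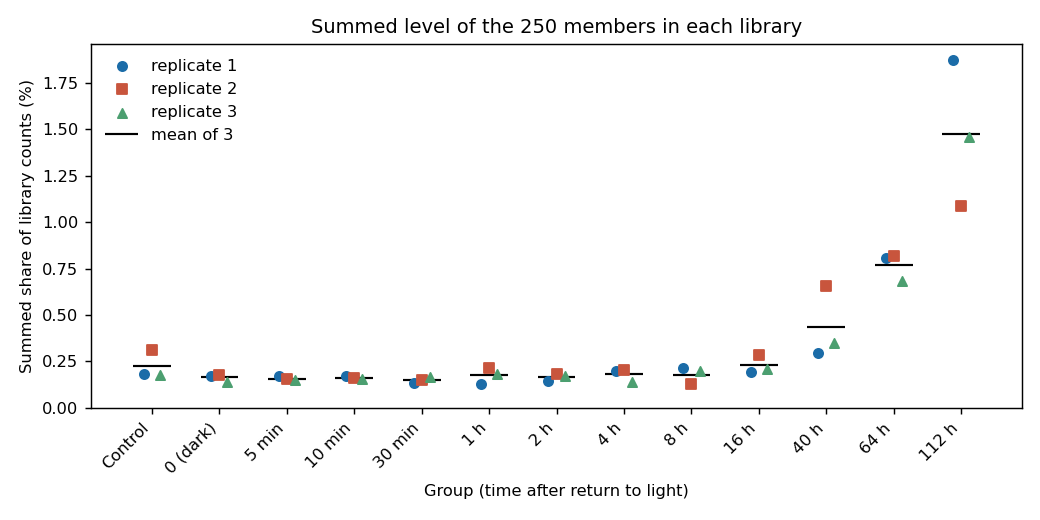
Summed counts of the 250 members as a percentage of all counts in a library (vertical axis), by group from control and 0 min to 112 h of light (horizontal axis). Points are the 3 libraries of a group and lines their mean; the libraries at 112 h lie at 1.09% to 1.87%, above all others, as the choice of members by their level at 112 h sets.

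Members differed widely in level. Their mean at 112 h ran from 5.04 to 635.2 CPM with a median of 21.6 CPM, and 35 members had at least 100 CPM while 69 had under 10 CPM. The ratio to the highest of the 3 other means ran from 3.10 to 68.9, with a median of 4.73. It was at least 5 for 117 members, at least 10 for 40 and at least 20 for 9. At the edge of the list, rank 250 had 12.1 CPM at 112 h and 3.84 CPM in control. Rank 251, the first left out, had 12.2 CPM at 112 h and 3.86 CPM at 16 h. The 17 transcripts that met the conditions and were left out had ratios from 3.01 to 3.09.

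The median over members of the group mean was 1.96 CPM at 0 min, 2.10 CPM at 8 h, 3.35 CPM at 16 h, 6.51 CPM at 40 h, 11.7 CPM at 64 h and 21.6 CPM at 112 h. Control leaves had a median of 3.29 CPM. As a share of its own level at 112 h, the median member stood at 9.85% at the end of darkness, and 16, 40 and 64 h of light gave 15.9%, 28.4% and 50.1%, with 14.5% in control. For 236 members the means rose in order through 16, 40, 64 and 112 h, and for 234 the second highest mean of all 13 groups was at 64 h. The highest of the 3 means that set the ratio was the control mean for 105 members, the 16 h mean for 101 and the 0 min mean for 44. Both ends of this order were set by the rule, which asked for the highest mean at 112 h and a mean at least 3-fold lower at 16 h.

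By the first time at which a member's mean reached 50% of its 112 h mean, 13 members were early (at any time from 5 min to 8 h), 10 followed by 40 h and 108 by 64 h. The other 119 reached that level only at 112 h. In this last class the median of the means was 1.31 CPM at 8 h, 2.00 CPM at 16 h, 3.96 CPM at 40 h, 8.08 CPM at 64 h and 22.5 CPM at 112 h. In the class that reached 50% by 64 h it was 2.46 CPM at 8 h, 3.88 CPM at 16 h, 7.56 CPM at 40 h, 13.2 CPM at 64 h and 20.7 CPM at 112 h. The classes were defined from the same means, so their order in time is a description.

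**Figure D2:**
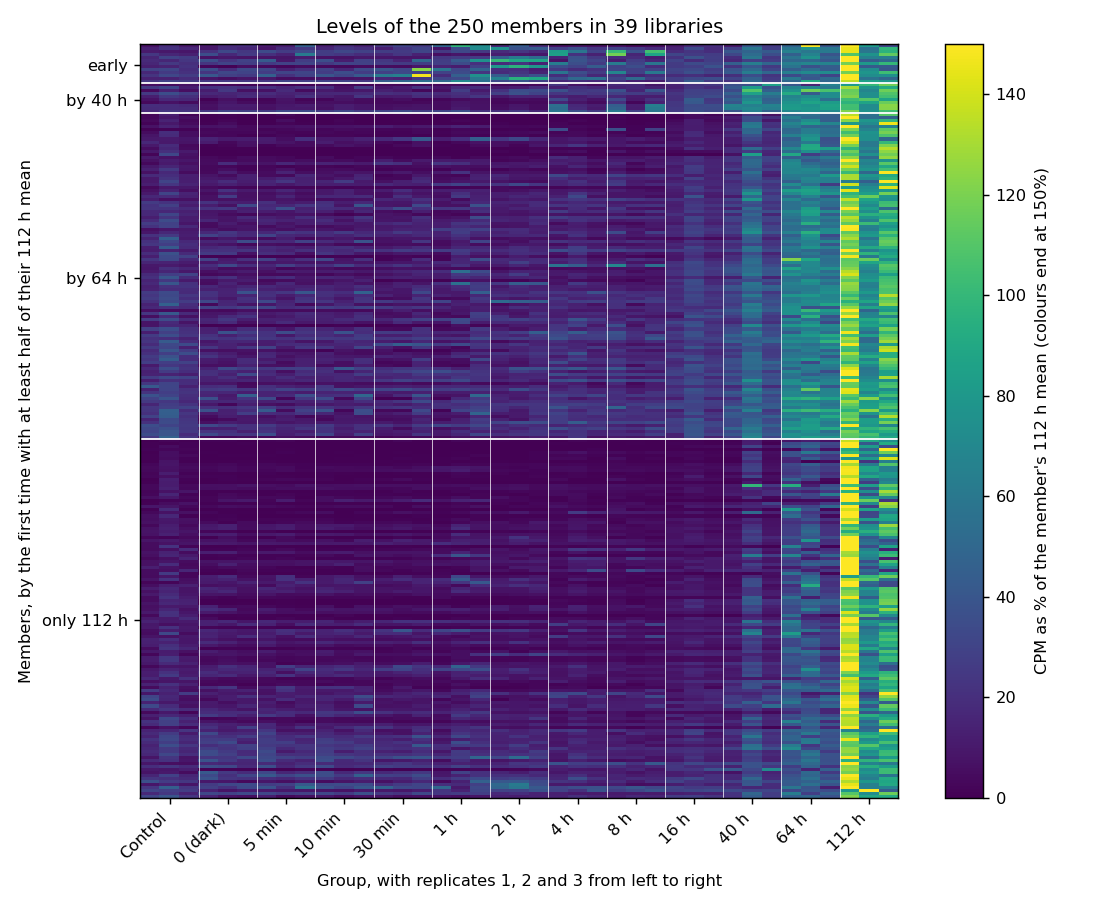
CPM of each member in every library as a percentage of its own mean at 112 h (colour, ending at 150%), with members down the page by time class and, across, the 13 groups from control and 0 min to 112 h with replicates 1, 2 and 3 from left to right. Most members are below 50% until 64 h, the 13 early members at the top also have high values within the first 8 h, and replicate 1 is the brightest column at 112 h.

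The climb ran through the harvests at 16 h, 40 h, 64 h and 112 h. The groups at 5 min, 30 min, 2 h, 8 h, 40 h and 64 h took no part in the folds of the rule. The rule kept their means below that at 112 h, and they lie in time between groups that it used. Their levels are thus not independent of the choice. The steps between the groups outside the folds were tested over all 42181 transcripts with edgeR's quasi-likelihood test. A transcript is called at a Benjamini-Hochberg adjusted p below 0.05. From here on, rose and fell are used of called members. Log2 differences are the later time minus the earlier one.

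At 40 h against 8 h, 152 of the 250 members (60.8%) rose and 0 fell, whereas 10.3% of all transcripts tested rose and 12.3% fell. Of the 152, 147 rose at least 2-fold. The median log2 difference was 1.45 over the members (quartiles 0.85 and 2.08) and 0.00 over all transcripts tested. It was positive for 241 members and for 49.9% of all transcripts tested. The count leaned on single libraries: without replicate 2 of 40 h 86 members were called, without replicate 2 of every group 75 and without replicate 3 of every group 101. The 8 h harvest lies at another clock time than the one at 40 h, so time of day and time in light cannot be told apart in this step. The rule also asked for low means at 0 min and 16 h, on either side of 8 h, and for the highest mean at 112 h. A rise from 8 h was thus favoured by the choice of members. The 67 members with a mean under 1 CPM at 8 h could hardly be called lower. Nothing is therefore read from the excess over all transcripts.

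At 64 h against 8 h, a comparison added after the data had been seen, 230 members (92.0%) rose and 0 fell, whereas 18.1% of all transcripts tested rose and 19.7% fell. All 230 rose at least 2-fold. The median log2 difference was 2.49 over the members and 0.01 over all transcripts tested. Only the members of rank 171 and 181 had a negative difference, while 50.7% of all transcripts tested had a positive one. This comparison uses the same 8 h libraries as the one before. When libraries were left out, 215 to 227 members were called. The same limits of clock time and of the choice of members apply, so nothing is read from the excess over all transcripts here either.

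At 64 h against 40 h, which share a clock time, 2 members (0.800%) rose and 0 fell by edgeR's quasi-likelihood test. This main fit left the replicate number out. Of all transcripts tested, 0.00948% rose and 0.0332% fell. DESeq2 called 24 members and 0.780% of all transcripts. The median log2 difference was 0.95 over the members and 0.01 over all transcripts tested. It was positive for 247 members and for 51.2% of all transcripts tested. Deviations of libraries with the same replicate number correlated weakly between these 2 groups (r of 0.104, 0.285 and 0.176). With the replicate number as a block over all 39 libraries, 62 members were called, against 2.30% of all transcripts. The replicate numbers were taken to pair these libraries, so the 2 of the main fit are given no more weight than the 62. Without the second 40 h library 101 members and 3.10% of all transcripts were called, and without the second library of every group 105; without the first or the third 40 h library, or the first or second 64 h library, none was. The count for this step thus rested on the fit used and on which libraries entered it, whereas the sign of the difference was shared by nearly all members. The rule, with a low mean at 16 h and the highest mean at 112 h, favours that sign.

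**Figure D3:**
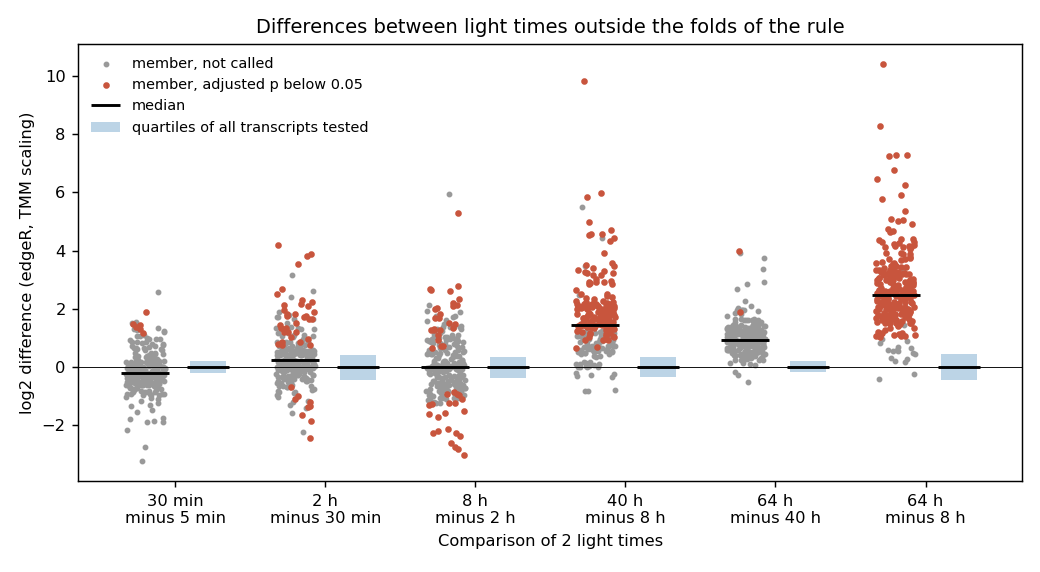
Log2 difference of each tested step, later time minus earlier time (vertical axis), for the 250 members (points, red where the adjusted p is below 0.05) beside the quartiles of all 42181 transcripts tested (blue bars), with steps along the horizontal axis and medians as black lines. The members' medians lie near 0 in the steps up to 8 h and at 1.45, 0.95 and 2.49 in the steps to 40 h, from 40 h to 64 h and from 8 h to 64 h.

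Transcript 698501472, of rank 23, had the highest level of all members. At 112 h it had 779, 501 and 626 CPM. In the earlier late groups it had 21.7, 78.0 and 24.9 CPM at 16 h, 59.4, 219 and 60.3 CPM at 40 h, and 353, 460 and 279 CPM at 64 h. The libraries of 64 h lay above those of 40 h and below those of 112 h, while at 40 h replicates 1 and 3 lay below replicate 2 of 16 h. At 8 h it had 9.48, 1.47 and 2.95 CPM, and it rose at 40 h against 8 h by 4.72 on the log2 scale (SE 1.17, adjusted p = 0.00401, edgeR's quasi-likelihood test) and at 64 h against 8 h by 6.47 (SE 1.26, adjusted p = 0.000145). The difference of 1.74 at 64 h against 40 h (adjusted p = 0.549, edgeR) did not pass, and without replicate 2 of every group it was 2.47 and did (adjusted p = 0.0159). Before the return to light it had 2.35, 14.1 and 1.98 CPM at 0 min, against 24.8, 93.8 and 18.7 CPM in control, and in both groups the second library was the high one.

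Transcript 698520447, of rank 1, had the largest ratio and came late. It had 39.8, 26.4 and 21.6 CPM at 112 h, after 0.283, 3.55 and 0.521 CPM at 40 h and 2.51, 3.46 and 2.09 CPM at 64 h. No library before 112 h had more than 3.55 CPM, so the last group stood apart from all others. At 8 h it had 0.293, 0.203 and 0.121 CPM, and it rose at 64 h against 8 h by 3.89 on the log2 scale (SE 0.75, adjusted p = 0.000132, edgeR). At 40 h against 8 h the log2 difference was 2.93 (SE 0.80, adjusted p = 0.00821, edgeR), and without the second 40 h library it was 1.10 and no longer passed (adjusted p = 0.434). Without replicate 2 or replicate 3 of every group it did not pass either (adjusted p = 0.314 and 0.0653, edgeR). At 64 h against 40 h it was 0.96 (adjusted p = 0.557, edgeR), and without that library 2.77 (adjusted p = 0.0171).

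Among the other members of high rank, that of rank 3 had 255, 116 and 46.6 CPM at 112 h, after 5.89, 42.7 and 12.6 CPM at 40 h and 53.9, 67.2 and 40.2 CPM at 64 h. The third library at 112 h thus lay within the 64 h range, while the first lay far above it. Against 8 h, where it had 0.585, 0.355 and 0.243 CPM, its log2 difference was 5.83 at 40 h (SE 0.76, adjusted p = 5.32e-06, edgeR) and 7.28 at 64 h (SE 0.77, adjusted p = 2.75e-08). The member of rank 10 had 62.9, 67.3 and 54.6 CPM at 64 h, against 5.42, 26.8 and 7.34 CPM at 40 h, with no overlap. It was not called in that step by the main fit, without a replicate block (log2 difference 2.285, adjusted p = 0.223, edgeR). At 112 h it had 165, 68.9 and 135 CPM.

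Rank 74 had the largest log2 differences of all members at 40 h and at 64 h against 8 h. It had 0.234, 0.304 and 0 CPM at 8 h, 1.05, 1.54 and 0.211 CPM at 16 h, 26.7, 346 and 57.9 CPM at 40 h, 366, 110 and 155 CPM at 64 h, and 436, 307 and 480 CPM at 112 h. The second 40 h library thus lay above 2 of the 3 libraries at 64 h. Its log2 difference was 9.82 at 40 h against 8 h (SE 1.11, adjusted p = 8.51e-07, edgeR) and 10.42 at 64 h against 8 h (SE 1.12, adjusted p = 3.52e-08). In control leaves it had 9.45, 130 and 29.8 CPM, so it was present without the dark treatment and near 0 from the end of darkness to 16 h of light. Uneven in the same libraries was rank 18, with 35.8, 338 and 82.1 CPM at 40 h and 318, 42.2 and 117 CPM at 64 h.

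**Figure D4:**
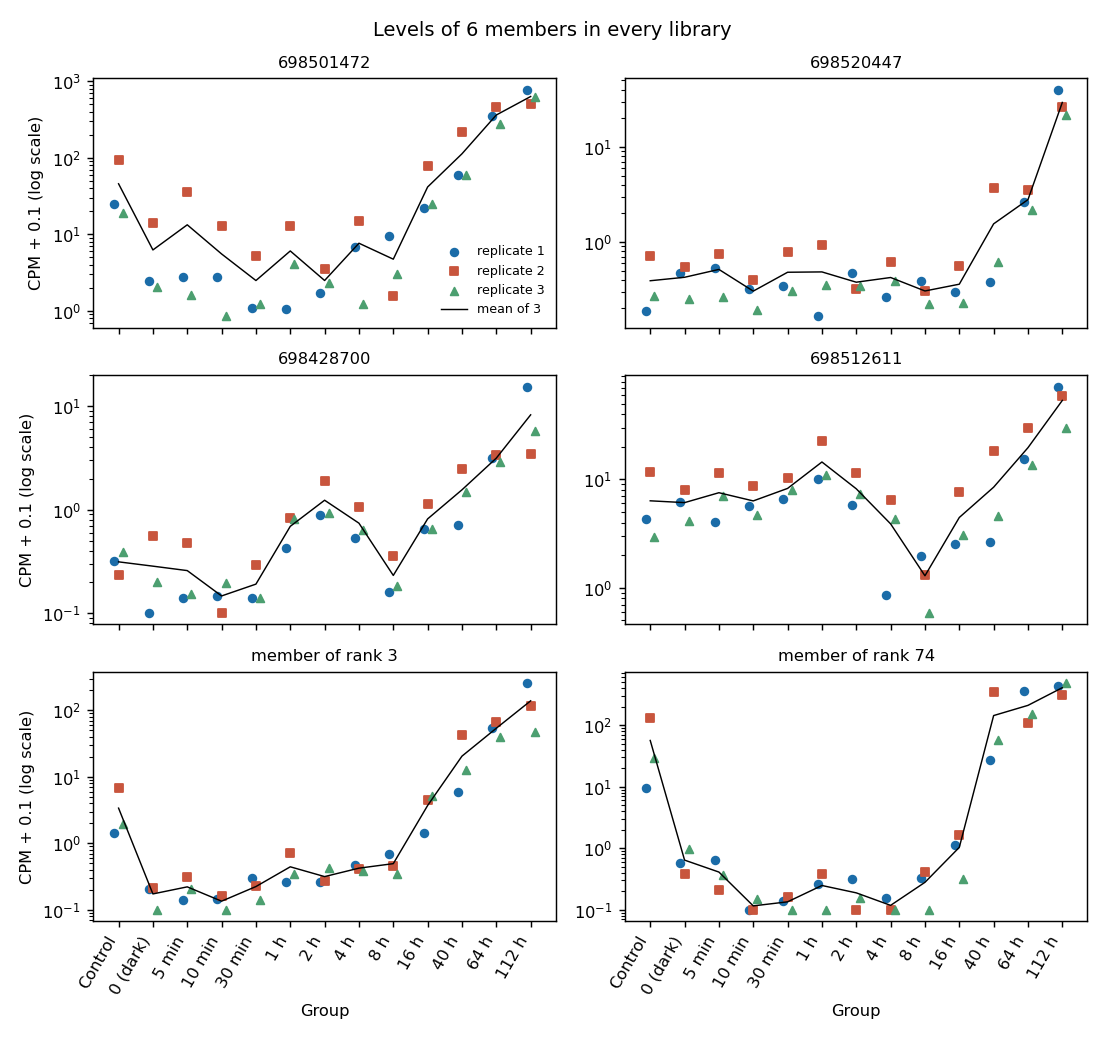
CPM in every library (log scale, with 0.1 added) for 6 members, by group from control and 0 min to 112 h of light; points are libraries and lines the group means. The 2 printed risers, the 2 printed fallers and the members of rank 3 and 74 all end with their highest mean at 112 h, at levels between 8.18 and 635.2 CPM.

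The 2 members called at 64 h against 40 h by the main fit, without the replicate block, were those of rank 29 and 48. Rank 48 had 6.06, 9.34 and 10.1 CPM at 64 h, against 2.12, 3.02 and 2.08 CPM at 40 h, with no overlap (log2 difference 1.89, SE 0.35, adjusted p = 0.048, edgeR). Rank 29 had 7.38, 4.15 and 0.476 CPM at 64 h, against 0.141, 0.341 and 0.284 CPM at 40 h, so replicate 3 of 64 h lay just above the 40 h range (log2 difference 3.98, SE 0.78, adjusted p = 0.048, edgeR). At 40 h against 8 h neither was called. Rank 48 stayed between 1.21 and 3.22 CPM in the control, 0 min, 30 min, 2 h, 8 h and 16 h libraries.

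The members were not all low in the same way before the late climb. In 54 members the mean at 0 min was more than 3-fold below the control mean, a difference that 2.48% of all transcripts tested also had, and in 3 members it was more than 3-fold above it (5.83% of all). Both groups entered the rule, so nothing is read from these shares. The 54 had a median of 0.575 CPM at 0 min, 1.26 CPM at 8 h, 3.06 CPM at 16 h, 8.13 CPM at 40 h, 14.5 CPM at 64 h and 32.7 CPM at 112 h, and one of 4.23 CPM in control. At 16 h, 45 of them had a mean within 3-fold of control and 9 were still lower, while none was higher. Since 112 h, 16 h, 0 min and control all entered the rule, their order here is a description. The other 196 had a median of 2.64 CPM at 0 min and 3.09 CPM in control, with 3.41 CPM at 16 h and 19.1 CPM at 112 h.

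Of the 54 members, 40 rose at 40 h against 8 h and 50 at 64 h against 8 h. Of the other 196, 112 and 180 did, beside 10.3% and 18.1% of all transcripts tested. The choice of members favoured these rises, so nothing is read from the excess. At 2 h against 30 min, 14 of the 54 rose and 0 fell, and 20 of the 196 rose and 9 fell, beside 17.7% and 19.1% of all transcripts tested. The 54 were picked for a low mean at 0 min, which left little room to fall, and whether the sets differ was not tested. An example is rank 69, which had 0.748, 1.13 and 2.03 CPM at 0 min, 10.8, 38.2 and 23.2 CPM at 16 h, 34.3, 95.0 and 50.7 CPM at 40 h, 126, 165 and 152 CPM at 64 h and 177, 125 and 243 CPM at 112 h, and 8.58, 29.8 and 8.39 CPM in control. Its libraries at 16 h overlapped those of control, and those at 64 h and 112 h lay above both.

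Members without any count at 0 min were those of rank 4 and rank 7. Rank 4 had 5.85, 3.04 and 10.2 CPM at 112 h and no count in the libraries at 30 min, 2 h, 8 h and 16 h either. It did have counts at 5 min, as its log2 difference at 30 min against 5 min was -1.90 (SE 2.59). Set against a floor of 3 counts over the 3 libraries at 0 min, the mean of rank 4 at 112 h was 119-fold higher. Rank 7 had 4.18, 4.30 and 7.56 CPM at 112 h, and its mean was 100.1-fold above the same floor. Single libraries at 112 h lay below these means, and both groups entered the rule, so the folds are a description. In control, rank 4 had 0.0871, 0.175 and 0.144 CPM, so it was close to the limit of detection there too.

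Many members were close to 0 in the first hours of light, with a mean under 1 CPM for 90 members at 30 min, 73 at 2 h and 67 at 8 h, and they passed the filter through their level at 112 h. Such members could hardly be called in the early steps, least of all as lower, so nothing is read from their counts against those of all transcripts. At 30 min against 5 min, 6 members (2.40%) rose and 0 fell, against 2.65% and 3.01% of all transcripts tested. At 2 h against 30 min, 34 (13.6%) rose and 9 (3.60%) fell, against 17.7% and 19.1% of all. At 8 h against 2 h, 26 (10.4%) rose and 22 (8.80%) fell, against 12.4% and 12.7%. The median log2 differences of the members were -0.19, 0.23 and 0.00 in these 3 steps, with 0.01, 0.00 and -0.01 for all transcripts. At 8 h against 2 h, 31 were called without replicate 1 of every group and 16 without replicate 3, in place of 48. At 2 h against 30 min, 21 were called without the third library of every group, in place of 43. The 6 at 30 min against 5 min became 2 without the third library of every group, and 3 or 1 without replicate 1 or 3 of 5 min.

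The 13 early members were picked by their means between 5 min and 8 h, so their calls in the steps between those times follow in part from that choice. Their early high point was at 30 min for 2, at 1 h for 2, at 2 h for 5 and at 8 h for 4. At 8 h against 2 h, 4 of the 13 rose and 6 fell, beside 12.4% and 12.7% of all transcripts tested. Rank 203 had 39, 53 and 44.8 CPM at 2 h, against 7.82, 7.13 and 7.89 CPM at 30 min, and the groups did not overlap (log2 difference 2.68, SE 0.37, adjusted p = 1.11e-06, edgeR). It fell to 16.2, 16.5 and 9.63 CPM at 8 h (log2 difference -1.72, SE 0.36, adjusted p = 0.000593, edgeR), and had 146, 56.3 and 54.4 CPM at 112 h. Its level at 112 h was thus above its 2 h peak, though by a wide margin in 1 library only. The member of rank 246 had 62.9, 18.7 and 16.2 CPM at 112 h and 21.3, 31.0 and 29.1 CPM at 2 h, so 2 of its 3 libraries at 112 h lay below those at 2 h, and its place in the list rests on the first.

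The largest falls at 8 h against 2 h were those of transcript 698428700 (rank 37) and transcript 698512611 (rank 54). Transcript 698428700 had 0.0585, 0.253 and 0.0809 CPM at 8 h, against 0.792, 1.78 and 0.832 CPM at 2 h, with no overlap. Its log2 difference was -3.04 (SE 0.79, adjusted p = 0.00484, edgeR), after a rise at 2 h against 30 min of 3.82 (SE 0.86, adjusted p = 0.000709). At 64 h it had 3.08, 3.28 and 2.81 CPM and had risen again against 8 h (log2 difference 4.65, SE 0.72, adjusted p = 7.44e-06, edgeR), and at 112 h it had 15.4, 3.39 and 5.69 CPM. Its second library at 112 h was barely above those at 64 h.

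Transcript 698512611 had 1.87, 1.22 and 0.486 CPM at 8 h, against 5.76, 11.3 and 7.24 CPM at 2 h, with no overlap (log2 difference -2.83, SE 0.75, adjusted p = 0.00541, edgeR). It had 15.3, 29.7 and 13.6 CPM at 64 h and 71.9, 59.0 and 29.6 CPM at 112 h. At 64 h against 8 h it rose (log2 difference 4.25, SE 0.75, adjusted p = 4.25e-05, edgeR). Without the third library of every group, neither transcript's fall at 8 h passed (adjusted p = 0.109 for 698428700 and 0.118 for 698512611, edgeR), with log2 differences of -2.96 and -2.48. The rise of 698512611 at 40 h against 8 h, 2.97 (adjusted p = 0.00454, edgeR), became 1.73 without the second 40 h library (adjusted p = 0.137). It did not pass without replicate 2 or replicate 3 of every group either (adjusted p = 0.0838 and 0.0702, edgeR).

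The members of rank 40, 181 and 240 moved the other way at 8 h. Rank 240 had 133, 34.0 and 173 CPM at 8 h, against 15.4, 26.5 and 14.4 CPM at 2 h (log2 difference 2.63, SE 0.47, adjusted p = 0.000102, edgeR), and 293, 205 and 345 CPM at 112 h. Rank 181 had 84.7, 11.3 and 62.4 CPM at 8 h, against 9.14, 7.50 and 6.49 CPM at 2 h (log2 difference 2.79, SE 0.56, adjusted p = 0.000398, edgeR). Rank 40 had 29.1, 1.32 and 23.1 CPM at 8 h, against 0.528, 1.0 and 0.0805 CPM at 2 h (log2 difference 5.31, SE 1.05, adjusted p = 0.000367, edgeR). In all 3 the second 8 h library was the low one and lay close to the 2 h level, and the part of that library in these rises was not tested for the single members. The member of rank 24 was among those that fell at 2 h against 30 min, with 1.22, 1.06 and 0.698 CPM at 2 h and 3.59, 5.24 and 8.05 CPM at 30 min (log2 difference -2.44, SE 0.72, adjusted p = 0.00773, edgeR); it had 1.09, 1.5 and 1.52 CPM at 64 h and 70.5, 50.8 and 9.83 CPM at 112 h.

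The libraries of a late group did not hold the members equally. At 112 h the first library was the highest for 195 members (78.0%), against 42.0% of all transcripts tested, the second for 6 (2.40%, against 42.3%) and the third for 49 (19.6%, against 15.6%). The median ratio of the first library to the second was 1.75 and to the third 1.32. In 67 members more than 50% of the 112 h sum lay in 1 library, which was the first for 62. At 40 h the second library was the highest for 227 members (90.8%, against 42.1% of all), at 16 h the second for 189 (75.6%, against 37.9%) and in control the second for 193 (77.2%, against 30.7%). Among members with at least 5 CPM the median coefficient of variation was 32.4% at 112 h and 43.1% at 40 h, against 13.1% and 11.1% for all transcripts at that level, while at 64 h it was 18.7% against 7.67%. Members thus tended to be high in the same library of a group. What else moved with these libraries was not tested. Across the 250 members, log2(CPM + 1) at 112 h had a Pearson r of 0.94 between replicates 1 and 2. It was 0.90 between replicates 1 and 3 and 0.93 between replicates 2 and 3. The wide range of levels among the members raises any such r.

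**Figure D5:**
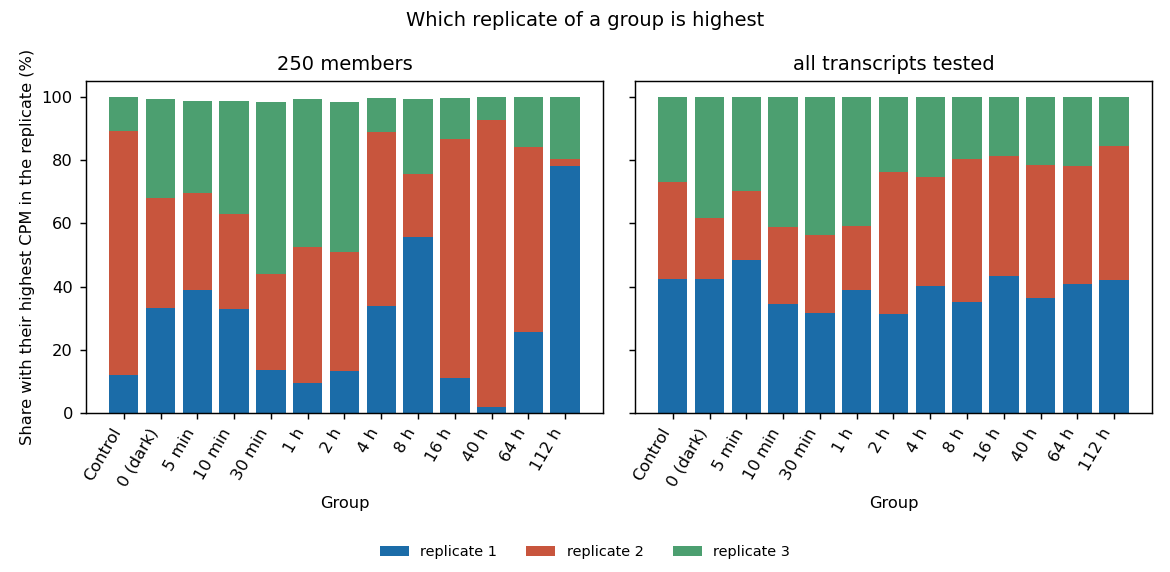
Percentage of transcripts whose highest library in a group is replicate 1, 2 or 3 (vertical axis), for the 250 members and for all 42181 transcripts tested, by group (horizontal axis); a transcript without counts in a group is in none, so that some member bars end below 100%. At 112 h replicate 1 is the highest for 78.0% of members, and at 40 h replicate 2 for 90.8%.

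Since the first library weighs on the choice, the list was rebuilt from 2 replicate numbers at a time and the fold was read in the replicate number left out of the choice. The list built without the first libraries had 175 transcripts, of which 167 were members, and in the first libraries 159 (90.9%) were at least 3 times each of control, 0 min and 16 h, with a median ratio of 7.43 and all 175 above 1. The list built without the second libraries had 250 transcripts, of which 215 were members, and in the second libraries 90 (36%) reached 3 times, with a median of 2.55 and 246 above 1. The list built without the third libraries also had 250, of which 211 were members, and in the third libraries 175 (70%) reached 3 times, with a median of 4.53 and 239 above 1. Of all transcripts tested, 2.11%, 0.498% and 1.31% reached 3 times in the libraries of replicate 1, 2 and 3 alone. Most transcripts of each list were thus higher at 112 h in the replicate left out, and the median ratio was smallest in the second. In all, 148 members were higher in every 112 h library than in any of the 36 others (1.66% of all transcripts tested). Against only the 9 libraries of control, 0 min and 16 h, 247 were higher there (7.23% of all). The rule used these 3 groups and asked for the highest mean at 112 h. Both counts were thus favoured by the choice of members, and nothing is read from them.

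Members also lay next to each other in the deposited order of identifiers. There were 28 pairs of members at neighbouring places, made up of 52 members in 24 runs of at most 3. Across the 39 libraries log2(CPM + 1) of such pairs had a median Pearson r of 0.98, with 27 of the 28 above 0.9 and the lowest at 0.84. The choice of members by 1 pattern raises any such r: over the 31097 pairs of members not next to each other the median was 0.77, and 8.95% were above 0.9. All points share library depth and time, and whether adjacent members share reads was not tested. The members of rank 34 and 36 are a pair of high level, with 543, 357 and 485 CPM and with 408, 267 and 373 CPM at 112 h. At 64 h against 8 h they rose by 2.90 (SE 0.51, adjusted p = 4.12e-05, edgeR) and 2.84 (adjusted p = 4.64e-05) on the log2 scale. Of the 442 transcripts beside members that were not members themselves, 66 (14.9%) had their highest mean at 112 h, against 12% of all transcripts.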

How the data were processed

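The authors deposited 1 table of raw whole-number counts per transcript for each of 39 libraries (13 groups of 3), from polyA RNA read single-end, per the labels' protocols. Per the submitters' processing notes, the tools included FastQC 0.10.1, SAMtools 1.0 and BWA 0.70. The sources used here do not name the reference, the counting tool, the strand setting or the treatment of shared reads. Part of the extraction text in the labels describes other plants and was not used. Replicates are pools of leaves, so p-values measure the spread between pools.

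CPM were computed as count over library total. The members and lists were chosen with earlier results of these data known. The lists of defence, senescence and other genes set out for naming could not be tested, since 0 of the 53725 identifiers matched the 79372 genes of the reference table (ASM71507v2). By the naming rule, only the member with the highest level, that with the highest ratio and the 2 largest falls are printed by identifier; other members described were chosen after their values were seen.

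Tests used edgeR 4.0.16 in R 4.3.3: filterByExpr (minimum count 10, total 15) left 42181 transcripts and set aside 11544, library sizes were TMM-scaled (a trimmed mean of log ratios), and 1 quasi-likelihood fit over all 39 libraries gave every step, with Benjamini-Hochberg adjustment over the transcripts tested. The fit was tested on simulated data with counts drawn independently in each library. That test does not cover members that move together by library. The SE is the absolute log2 difference over the square root of F. DESeq2 1.42.0 was an alternative. The comparison of 64 h with 8 h was added after the data had been seen. Deviations from the group means of same-numbered libraries at 64 h and 40 h had correlations of 0.104, 0.285 and 0.176. All were over 0.1, so the numbers were taken to pair the libraries in that step, though the correlations are weak. The main fit did not use this pairing, and the p-values of single members in that step come from fits without it. No label says what a number shares. The block was fitted over all 39 libraries, so it set the same replicate effect for all 13 groups.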

Additional observations from a re-analysis of the deposited data

How the results depend on the processing

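With all 39 libraries, the members called numbered 152 at 40 h against 8 h, 230 at 64 h against 8 h, 2 at 64 h against 40 h, 48 at 8 h against 2 h, 43 at 2 h against 30 min and 6 at 30 min against 5 min. Leaving out libraries gave ranges of 75 to 159, 215 to 227, 0 to 105, 16 to 50, 21 to 46 and 1 to 7 in the same order. At 64 h against 40 h, scaling by library size alone called 0, a fit to only the 6 libraries of those groups 9, DESeq2 24 and the replicate block 62. A fit to only the 6 libraries of the groups called 66 at 2 h against 30 min and 1 at 30 min against 5 min. Other settings kept each count within 1.5 times. The cause of these moves was not tested.

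The replicate block changed the other counts to 162 at 40 h against 8 h, 230 at 64 h against 8 h, 57 at 8 h against 2 h, 46 at 2 h against 30 min and 8 at 30 min against 5 min; there the correlations of same-numbered libraries ran from -0.297 to 0.453, and at least 1 per step was under 0.1, so no pairing was taken. At 64 h against 40 h and at 2 h against 30 min, every library of the later group correlated best with its own number in the earlier group. Library-size scaling moved the median log2 difference of all transcripts to -0.11 at 2 h against 30 min and to -0.15 at 64 h against 8 h.

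The list kept 211 of its 250 members with 1 CPM added in the ratios, 247 with 0.01 added, 201 with medians in place of means, 235 with TMM-scaled CPM and 167 to 215 when a replicate number was left out. With 15844109 to 37269515 counts per library, levels well under 1 CPM rest on few counts.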
